A study of Drosophila melanogaster with 8 samples.

Results

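The Turandot genes of Drosophila melanogaster were followed in animals with reduced or lost tgs1. The gene tgs1 encodes the enzyme that adds the trimethylguanosine cap to spliceosomal snRNAs and other noncoding RNAs. The 7 genes TotA, TotB, TotC, TotM, TotX, TotZ and TotF were taken by their symbols, out of 15735 named genes in the larval table and 15612 in the testis table. The larval table gave values for 6 of the 7, TotX not being analysed there, and the testis table gave values for 5, TotZ and TotF not being analysed there. The genes were chosen by symbol with their larval FPKM values known, that is, selected on the contrast between tgs1KO and WT larvae, so everything below about larvae describes them and carries no test, while the testis libraries played no part in the choice.

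RNA was enriched for poly(A) tails and sequenced from 4 groups of 2 libraries each. The tgs1KO larvae were whole second instar larvae of genotype tgs12-3, which carry a frameshift made with CRISPR/Cas9 and die at that stage. The WT larvae had genotype tgs12-4, a line from the same Cas9 procedure whose tgs1 and moi reading frames are intact, and each larval library came from about 80 animals. Each allele is 1 line, and homozygous mutants come from heterozygous mothers, so maternal tgs1 product can be present. The tgs1hypo testes were adult testes of genotype bam>moi;tgs1hypo in the labels, and the WT testes had genotype bam>tgs1;tgs1hypo, with about 100 testes per library in the labels and about 100 pairs in the study's methods. By these labels both testis groups carry the hypomorphic tgs1 alleles and differ in the cDNA, moi or tgs1, that the germline driver bam-gal4 expresses, whereas the study's text calls the control testes wild type. All flies were kept at 25 °C, and nothing states that the libraries of a group came from separate cultures, so p-values measure only the spread between these libraries.

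Turandot proteins are small secreted proteins, made largely in the fat body, the insect counterpart of the liver, and released into the hemolymph. Their genes are known for being switched on by infection, heat, wounding and other stress. In flies, TotA is a standard readout of the JAK-STAT pathway: blood cells release the cytokine Upd3, which acts on its receptor Dome and the kinase Hop in the fat body, and the Imd and Mekk1 pathways also feed into Turandot expression.

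Levels are given as FPKM, the fragments mapped to a gene per unit of transcript length and of mapped fragments in the library, so levels can be compared between genes. The number of reads behind a value is unknown. Differences are on the scale of log2(FPKM + 1), which understates the change of genes near 0. The mitochondrial genes took 15.2% and 13.9% of the summed FPKM in tgs1KO replicates 1 and 2, against 29.0% and 15.0% in WT replicates 1 and 2, so that WT replicate 1 stood apart. In tgs1KO replicate 2 the salivary glue genes, which mark the last larval instar, summed to 155 FPKM, against 1.47 in tgs1KO replicate 1 and 0.710 and 1.36 in the WT libraries. The targeted gene could be checked only through moi, which shares its transcript with tgs1, since tgs1 itself was not analysed here. In larvae moi had 6.41 and 6.85 FPKM in tgs1KO, against 4.64 and 7.42 FPKM in WT, and a frameshift need not lower the transcript. In testes moi had 3.81 and 2.71 FPKM in tgs1hypo, against 10.1 and 11.4 FPKM in WT (limma log2 change -1.47 ± 0.16, SE, adjusted p = 0.000389), although the labels place a moi cDNA in the tgs1hypo libraries. The study reported by RT-PCR that the tgs1hypo alleles lower both moi and tgs1. A cDNA driven by bam-gal4 is a separate transcript, so under the label genotypes moi need not follow tgs1 in testes.

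The genes are small, with 506 to 602 exonic bases, and 4 of the 7 sit in 1 cluster. TotA (chr3R:20871036-20871700), TotC (chr3R:20872988-20873580), TotB (chr3R:20873938-20874522) and TotZ (chr3R:20877736-20878363) lie in this order on the plus strand within 7328 bases, in the BDGP6 assembly. Each has 2 exons and overlaps no other gene. TotX (chr3R:20904917-20905518) is a single exon on the minus strand in an intron of Grik, 33.9 kb from the start of TotA. TotM (chr2L:5329857-5330464) stands alone on the plus strand. TotF (chr2L:19911815-19912377) lies in an intron of sick on the minus strand, 560 bases from TotE, a Turandot relative that the files call Victoria and that is not among the 7. How reads that match several Turandot copies were counted, and whether strand was used, is not given in the sources used here, so the split of reads between copies, and between TotX or TotF and their host genes, is uncertain.

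TotA and TotC were high in tgs1KO larvae and near 0 in WT larvae, and the other Turandot genes were below 1 FPKM in every larval library. TotA, the best studied member and the one most used as a stress readout, had 112 and 84.9 FPKM in the tgs1KO libraries, against 0.673 and 1.55 FPKM in the WT libraries. The means were 98.5 ± 19.2 and 1.11 ± 0.623 FPKM (SD, n = 2 each), a ratio of 88.5, and the lower tgs1KO library stood 54.7 times above the higher WT library. TotC, its neighbour in the cluster, had 16.0 and 23.2 FPKM in the tgs1KO libraries, while it was listed at 0 and at 0.701 FPKM in the WT libraries. For TotC the lower tgs1KO library exceeded the higher WT library 22.9 times. For both genes the gap between the groups was far wider than the gap within either of them. In bulk RNA of whole animals, more cells expressing a gene and more RNA per cell cannot be told apart.

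**Figure D1:**
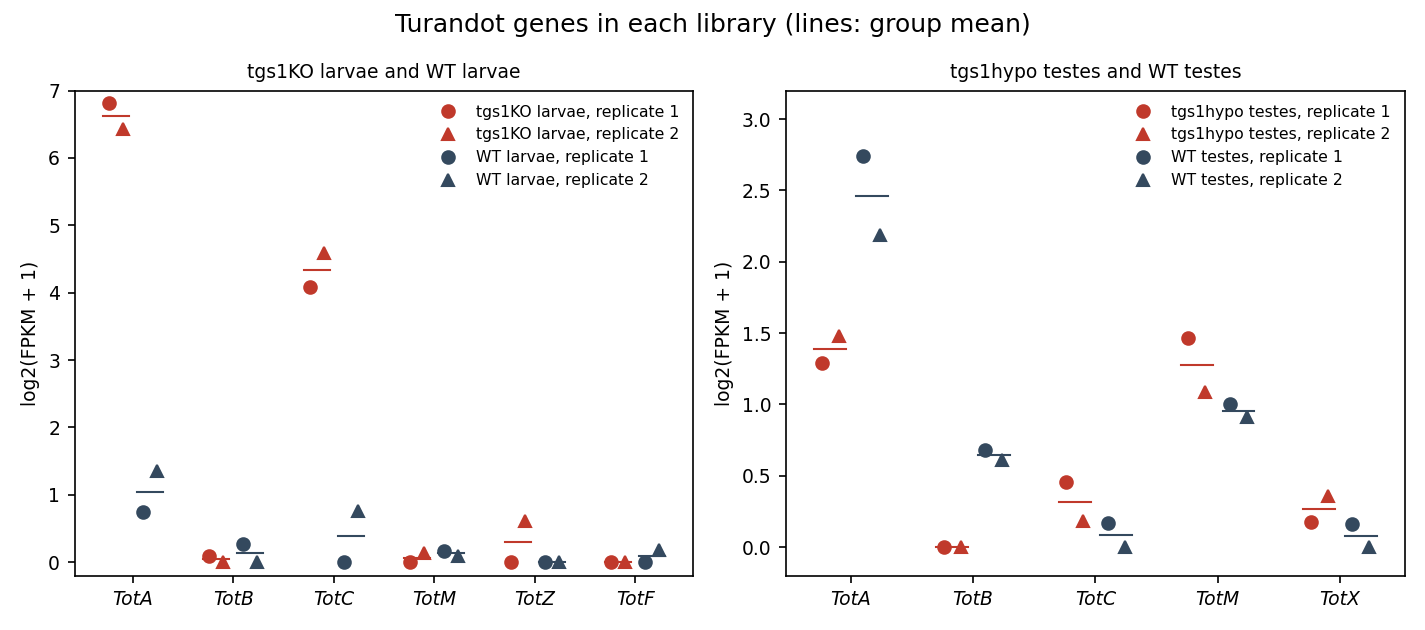
Level of each Turandot gene, log2(FPKM + 1), in every larval library (left) and testis library (right), with circles for replicate 1, triangles for replicate 2 and lines for the group means on this scale. TotA (112 and 84.9 FPKM) and TotC (16.0 and 23.2 FPKM) of the tgs1KO larvae stand apart from all other larval points, and in testes TotA is lower in tgs1hypo than in WT.

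On the log2 scale TotA differed by 5.58 and TotC by 3.96 between tgs1KO and WT larvae. The pooled SD between replicates was 0.36 for TotA and 0.46 for TotC. These were the largest and the second largest positive differences among the 9545 larval genes whose mean reached 1 FPKM. The median over those genes was 0.25, and it came to 0.01 once the libraries were scaled by the median of ratios, so TotA stood 5.32 and TotC 3.71 above the median gene. Without WT replicate 1, the library with the high mitochondrial share, the log2 difference was 5.27 for TotA and 3.58 for TotC. Without tgs1KO replicate 2, the library with glue gene expression, it was 5.77 for TotA and 3.71 for TotC.

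**Figure D2:**
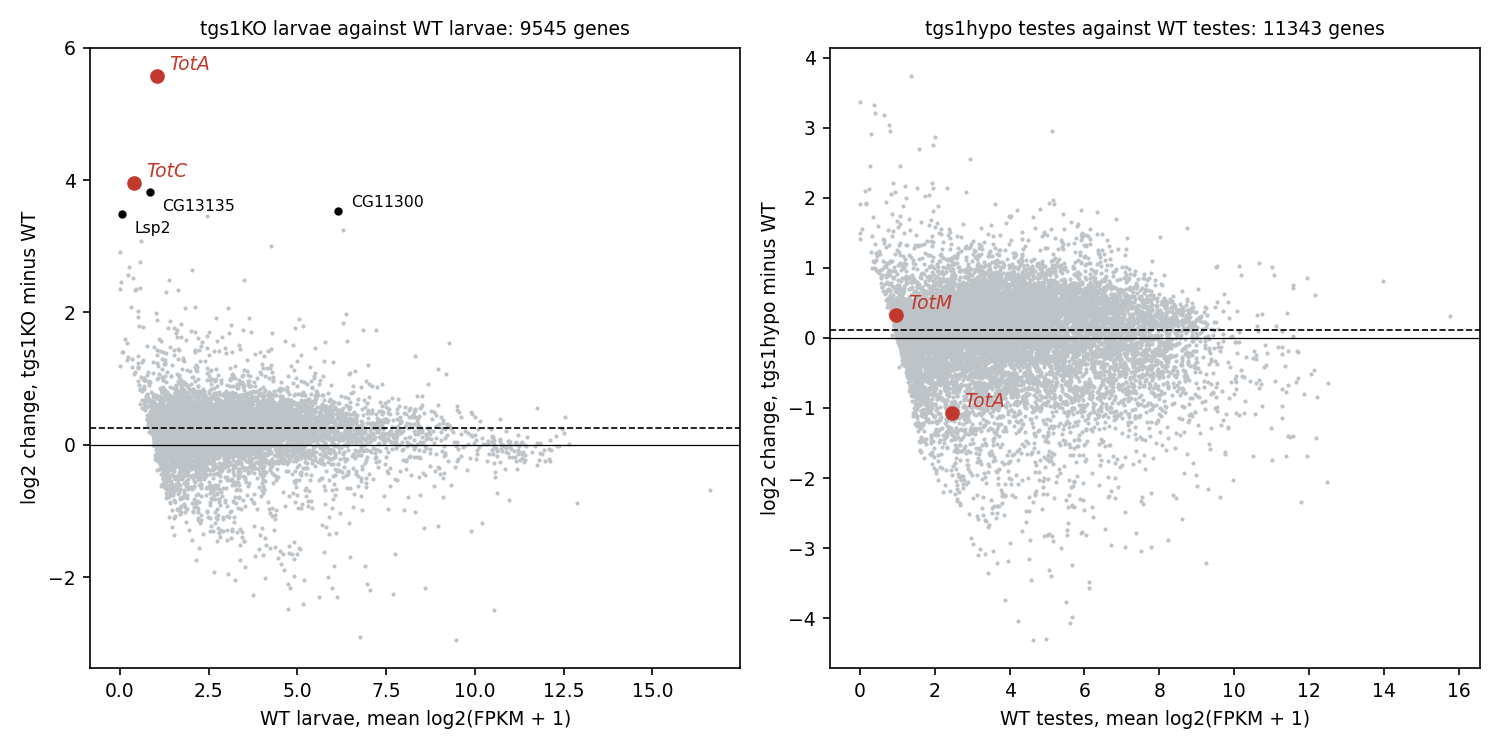
Log2 difference between mutant and WT, on the scale of log2(FPKM + 1), against the mean WT level for 9545 larval genes (left) and 11343 testis genes (right), with Turandot genes in red and the median gene as a dashed line. In larvae TotA (5.58) and TotC (3.96) lie above all other genes, the next being CG13135 (3.81), CG11300 (3.54) and Lsp2 (3.48).

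Both tgs1KO libraries lay above both WT libraries for 2 of the 6 members with a larval value, TotA and TotC. Of all 9545 larval genes, 43.1% had this order, and since larval values were behind the choice of genes, nothing is read from the count. The limma fit across all larval genes called 0 genes, or 0% of 9545, with p-values adjusted by Benjamini-Hochberg (limits of 0.05 for the adjusted p and of 1 for the size of the log2 change), while 742 genes had an unadjusted p under 0.05. The larval replicates were further apart than those of testes: the correlation across genes was 0.95 within tgs1KO larvae and 0.93 within WT larvae, against 0.99 within either testis group.

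The remaining larval members were low in all 4 libraries, though not all at the edge of what the table lists. Among 630 genes of the same length range with 1 transcript, the 20 lowest values above 0 had medians of 0.0105 to 0.0319 FPKM in the larval libraries. TotB, the closest neighbour of TotC, had 0.0690 and 0 FPKM in tgs1KO and 0.201 and 0 FPKM in WT. TotZ, at the far end of the cluster, was listed at 0 and 0.530 FPKM in tgs1KO and at 0 in both WT libraries. TotM had 0 and 0.0984 FPKM in tgs1KO and 0.127 and 0.0677 FPKM in WT. TotF was listed at 0 in both tgs1KO libraries and at 0 and 0.129 FPKM in WT, and its neighbour TotE at 0 in all 4 libraries. In none of TotB, TotZ, TotM and TotF did the groups separate. Only the value of TotZ in tgs1KO replicate 2 went above 0.3 FPKM, the highest of the other values being that of TotB in WT replicate 1.

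The high levels were thus held by 2 of the 4 neighbouring genes on 3R. TotC and TotB are 357 bases apart, yet in tgs1KO larvae TotC had 16.0 and 23.2 FPKM and TotB had 0.0690 and 0. TotA and TotC are separated by 1287 bases, and TotB and TotZ by 3213. The genes that flank the cluster showed no gap of this kind. The glutamate receptor gene KaiR1D, the next gene before TotA, had 1.29 and 1.57 FPKM in tgs1KO larvae and 1.20 and 1.22 in WT larvae. The noncoding gene lncRNA:CR44048, just past TotZ on the other strand, had 0.111 and 0.0370 FPKM in tgs1KO and 0.0710 and 0 in WT. Ktl, further along the arm, had 4.40 and 4.59 FPKM in tgs1KO and 3.95 and 3.43 in WT. The testis level of KaiR1D was 0.146 and 0.0506 FPKM in tgs1hypo and 0.525 and 0.499 FPKM in WT.

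**Figure D3:**
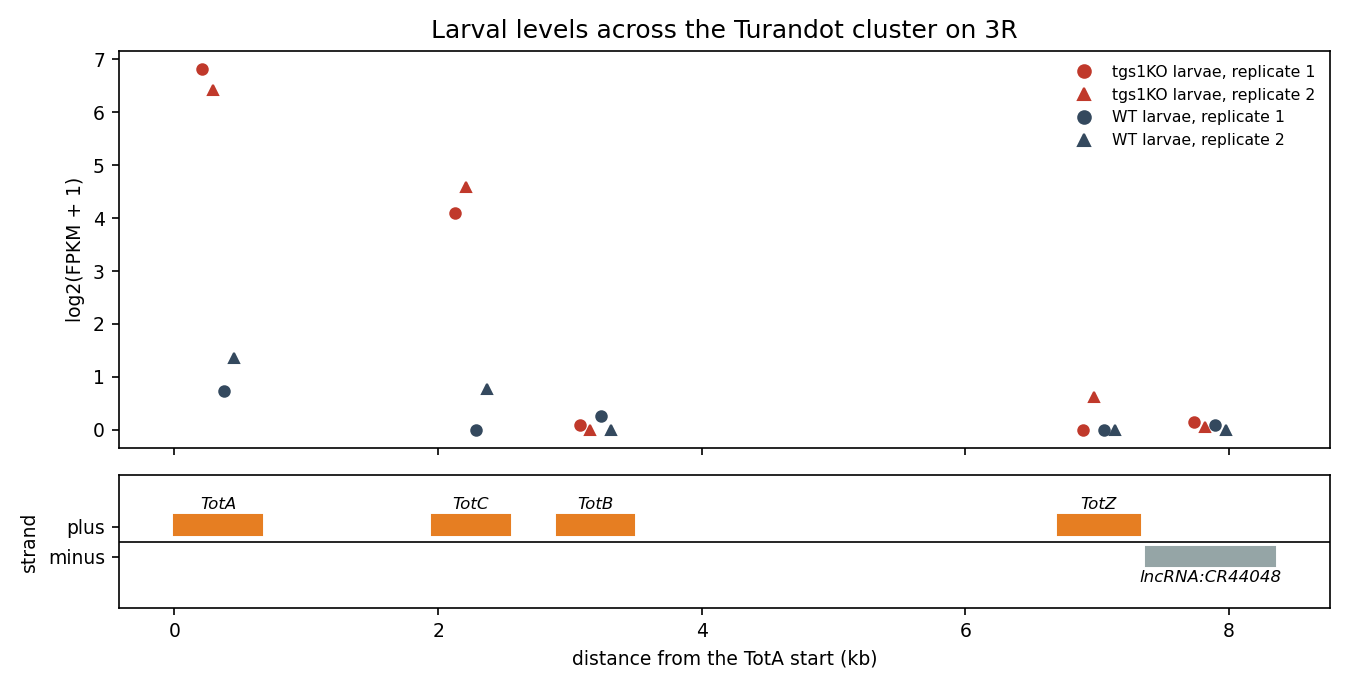
Larval levels, log2(FPKM + 1), across the Turandot cluster of 3R (top; red tgs1KO, dark WT; circles replicate 1, triangles replicate 2) above a map of the genes to scale, with distance from the TotA start in kb (bottom). TotA and TotC carry the difference between tgs1KO and WT, while TotB, 357 bases after TotC, TotZ and lncRNA:CR44048 stay near 0 in all 4 libraries.

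Summed over the 6 listed members, the family reached 128 and 109 FPKM in tgs1KO larvae, against 1.001 and 2.45 FPKM in WT larvae. The log2 ratio of the group means of this sum, with 1 FPKM added, was 5.45. TotA made up 87.4% and 78.1% of the sum in tgs1KO and 67.2% and 63.4% in WT. TotA was the 591st and 703rd most abundant of the 15735 named genes in the tgs1KO libraries, and the 10018th and 8508th in the WT libraries. The ratio of TotC to TotA was 0.143 in tgs1KO replicate 1 and 0.273 in tgs1KO replicate 2, against 0 and 0.451 in WT. The library with more TotA therefore had less TotC within tgs1KO larvae, whereas in WT larvae replicate 2 was higher for both.

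Named genes were ranked by how alike their pattern over the 4 larval libraries was to that of TotA or TotC. Only a fixed number of the nearest is given for each, so how many there are is not a result. Most of those given carry only a CG or CR identifier. Likeness was the root mean square distance between the genes' log2(FPKM + 1) values after each gene's own mean was subtracted, over 9543 named genes. TotA and TotC were 0.87 apart on this measure. CG9945 was nearest to both, at 1.09 from TotA and 0.27 from TotC, with 53.6 and 66.8 FPKM in tgs1KO and 3.57 and 5.68 FPKM in WT. CG11300 followed for both, at 1.15 from TotA and 0.30 from TotC, with 577 and 1176 FPKM in tgs1KO and 47.6 and 102.7 FPKM in WT. After these came CG13135, at 1.20, CR43855, at 1.28, and CG43402, at 1.47, for TotA. For TotC they were CR43855, at 0.68, CG13946, at 0.74, and the histone gene His2B:CG33868, at 0.80. No named gene came as close to TotA as TotC did, but all 5 named genes listed for TotC were nearer to it than TotA was. With the members left out, 12 assembled loci without a FlyBase identifier were nearer to TotA than CG9945 was, and 2 were nearer to TotC. The measure uses the larval values that were behind the choice of genes, so nothing further is read from it.

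The genes of the pathways that act before the Turandot genes were measured in the same larvae, from lists that were likewise drawn up with earlier results known. Of the 12 JAK-STAT genes listed, 10 were tested in larvae and 0 were called by limma (1 had an unadjusted p under 0.05, dome). All 10 had a positive log2 difference, with a median of 0.45 against 0.25 over all genes. In the lists given below, differences were also positive for 6 of 6 Mekk1-p38, 10 of 11 Imd and 7 of 9 JNK genes tested. The share of all larval genes with a positive difference was not determined, so nothing is read from these counts. The cytokine gene upd3 had 6.20 and 4.70 FPKM in tgs1KO larvae, against 3.52 and 1.07 FPKM in WT larvae. Its log2 difference was 1.07 ± 0.42 (SE, limma adjusted p = 0.575), so the groups did not overlap but the difference did not pass the test. Socs36E, a target and inhibitor of the pathway, had 47.6 and 27.1 FPKM in tgs1KO and 38.8 and 12.4 in WT, and there the groups overlapped. The receptor gene dome had 6.80 and 7.15 FPKM in tgs1KO and 3.96 and 4.55 in WT, with a log2 difference of 0.60 ± 0.20 (SE, limma adjusted p = 0.575).

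In the other pathway lists limma called 0 genes in larvae, and 0 had an unadjusted p under 0.05. In the Mekk1-p38 list all 6 genes were tested, with a median of 0.25, and the largest differences were those of lic (0.46), the kinase that activates p38, and p38b (0.34). In the Imd list 11 genes were tested, with a median of 0.19, and the death domain gene Fadd (0.38) and the kinase gene Tak1 (0.37) differed most. In the JNK list 9 were tested, with a median of 0.23, and bsk (0.50), which encodes the JNK itself, and kay (0.41), a Fos homolog, differed most. Each of these medians was at or below the 0.25 of all genes. TotA and TotC differed by more than any gene in the pathways listed. They held ranks 1 and 2 among all 9545 larval genes and were chosen with these values known, so nothing is read from this comparison.

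In the list of other secreted stress and immune proteins limma called 0 of 4 tested genes in larvae, and 0 had an unadjusted p under 0.05. Of these, vir-1, a marker of the response to virus, differed by 0.36 and Tep2, a thioester protein gene, by -0.27. Among the antimicrobial peptide genes 11 were tested and 0 were called by limma, with an unadjusted p under 0.05 for 2 and a median of -0.09. CecC had 28.6 and 45.6 FPKM in tgs1KO and 18.4 and 5.43 in WT (log2 difference 1.73 ± 0.58, SE, limma adjusted p = 0.575), and Drs had 25.1 and 7.12 FPKM in tgs1KO and 8.35 and 1.61 in WT, where the groups overlapped. The smallest unadjusted p of the list was that of AttC, with 5.60 and 4.89 FPKM in tgs1KO and 11.6 and 8.70 in WT (log2 difference -0.83 ± 0.23, SE, limma adjusted p = 0.575). The log2 difference was positive for 5 of the 11, and DptB, an Imd target, had 11.0 and 37.6 FPKM in tgs1KO and 31.4 and 28.6 in WT.

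Markers of other cell types also varied between the larval libraries, but limma called 0 of 3 tested hemocyte markers and 0 of 6 tested fat body markers. The unadjusted limma p was under 0.05 for 3 and 1 of them, where it was for 742 of the 9545 larval genes tested. Of the 5 hemocyte markers 4 had larval values, and all 4 were higher in both tgs1KO libraries than in both WT libraries, with sums of 33.2 and 14.8 FPKM in tgs1KO and 4.27 and 4.35 FPKM in WT. Of the 9545 larval genes tested 43.1% had this order, so nothing is read from such counts of markers. He, a blood cell surface protein gene, had 16.2 and 7.71 FPKM in tgs1KO and 1.60 and 1.36 FPKM in WT. The larval fat body list summed to 67.6 and 552 FPKM in tgs1KO and 52.2 and 94.9 in WT, with values for 6 of 7 genes, 2 of them higher in both tgs1KO libraries. Its lipoprotein gene apolpp had 67.3 and 77.1 FPKM in tgs1KO and 47.2 and 42.0 in WT, whereas Lsp2, a storage protein gene of the last instar, had 0.125 and 118 FPKM in tgs1KO and 0.0575 and 0.0151 FPKM in WT. Fbp1 of that list was listed at 0 in tgs1KO replicate 1 and in both WT libraries. The glue genes and Lsp2 were high in tgs1KO replicate 2 alone. Another storage protein gene, Lsp1beta, had 0.144 and 265 FPKM in tgs1KO and 4.73 and 51.8 FPKM in WT. TotA was highest in tgs1KO replicate 1, and TotC in tgs1KO replicate 2 (23.2 FPKM, against 16.0 FPKM in tgs1KO replicate 1). The part of hemocyte number, of fat body or of larval stage in the Turandot levels was not tested.

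**Figure D4:**
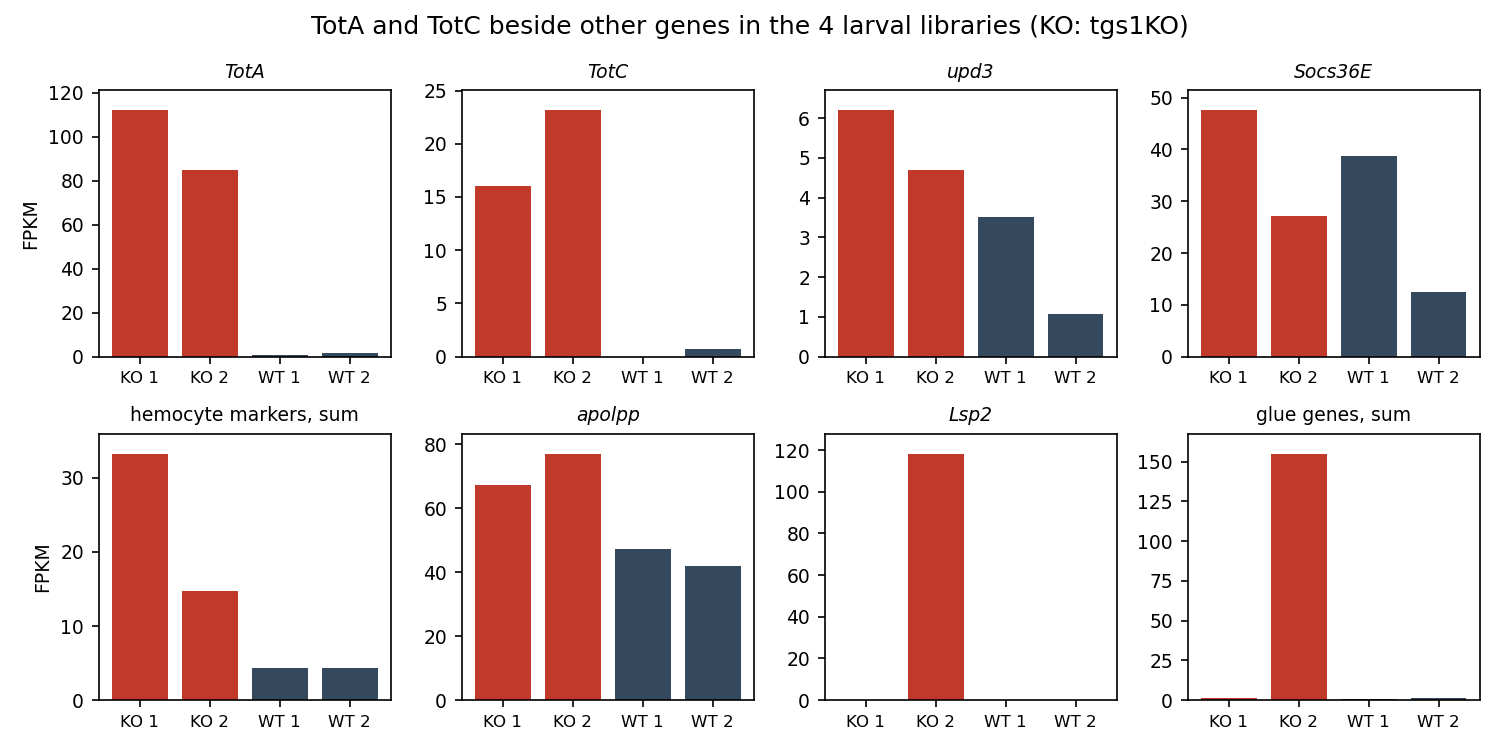
FPKM in each larval library (red tgs1KO replicates 1 and 2, dark WT replicates 1 and 2) for TotA, TotC, the cytokine gene upd3, its target Socs36E, the sum of 4 hemocyte markers, the fat body gene apolpp, the storage protein gene Lsp2 and the sum of 6 glue genes; each panel has its own axis from 0. TotA and TotC are high in both tgs1KO libraries, as are the hemocyte markers (33.2 and 14.8 FPKM), whereas Lsp2 (118 FPKM) and the glue genes (155 FPKM) are high in tgs1KO replicate 2 alone.

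In testes TotA was lower in tgs1hypo than in WT, so there its direction was the opposite of that in larvae. TotA had 1.45 and 1.79 FPKM in tgs1hypo testes, against 5.67 and 3.55 FPKM in WT testes, and the groups did not overlap. The means were 1.62 ± 0.239 and 4.61 ± 1.50 FPKM (SD, n = 2 each), a ratio of 0.351. The log2 change was -1.08 ± 0.21 (SE, limma adjusted p = 0.00469), which passed both limits of a call. It was the only member called: 1 of the 2 members tested was called lower, where 7.11% of the 11343 tested testis genes were, and 0 of 2 were called higher, where 3.54% were. The call stood close to the limit of a log2 change of 1 and was lost without WT replicate 1, at -0.80, without tgs1hypo replicate 1, at -0.98, and under quantile normalization, at -0.99. The adjusted p stayed under 0.05 in each of these, the highest being 0.0187. The median testis gene changed by 0.11, so TotA stood 1.19 below it.

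TotM, the member on 2L that stands apart from the clusters, was the other tested member. It had 1.77 and 1.13 FPKM in tgs1hypo testes and 0.9996 and 0.883 FPKM in WT testes. Both tgs1hypo libraries were above both WT libraries by little, and the log2 change of 0.32 ± 0.19 (SE, limma adjusted p = 0.185) did not pass the test. TotM was thus close to TotA in tgs1hypo testes (1.45 ± 0.453 against 1.62 ± 0.239 FPKM, SD, n = 2 each), while in WT testes it was below TotA (0.941 ± 0.0827 against 4.61 ± 1.50 FPKM).

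The remaining testis members did not reach the mean of 1 FPKM and were not tested. TotB was listed at 0 in both tgs1hypo libraries and had 0.600 and 0.529 FPKM in WT. TotC had 0.371 and 0.133 FPKM in tgs1hypo and 0.122 and 0 FPKM in WT. TotX had 0.128 and 0.281 FPKM in tgs1hypo and 0.119 and 0 FPKM in WT, as the value of a larger locus that holds more than this gene. TotB and TotA had both tgs1hypo libraries below both WT libraries, whereas TotC, TotM and TotX had both above. The share of all testis genes with either order was not determined, so nothing is read from this split. TotE, outside the 7, had 0 and 0 FPKM in tgs1hypo and 0.125 and 0.421 in WT, also as the value of a locus other than the gene's own extent. Among 573 genes of the same length range with 1 transcript, the 20 lowest values above 0 had medians of 0.0946 to 0.108 FPKM in the 4 testis libraries, so most values of TotC and TotX were within a few times the smallest that the table lists.

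The members' order differed between the tissues, which were normalised separately, so that the levels can only be set side by side. TotA was highest in tgs1KO larvae, and the values of tgs1hypo testes (1.45 and 1.79 FPKM) and WT larvae (0.673 and 1.55 FPKM) overlapped each other and lay below those of WT testes (5.67 and 3.55 FPKM). TotC was above 1 FPKM only in tgs1KO larvae. TotM was the reverse, at 0.883 to 1.77 FPKM in the testis libraries and at most 0.127 FPKM in the larval ones. Summed over the 5 members with testis values, the family had 3.72 and 3.33 FPKM in tgs1hypo and 7.51 and 4.96 FPKM in WT, of which TotA made up 39.0% and 53.7% in tgs1hypo and 75.5% and 71.6% in WT.

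Each pathway list in testes held 0 or 1 call, where 7.11% of the 11343 tested testis genes were called lower and 3.54% higher. With 4 to 13 genes tested per list, nothing is read from these counts. In the JAK-STAT list 9 genes were tested and 1 was called lower, upd1, the cytokine gene of the testis hub, which the testis table names os, with 2.63 and 2.45 FPKM in tgs1hypo and 9.05 and 9.13 FPKM in WT (log2 change -1.51 ± 0.13, SE, limma adjusted p = 0.000136). The other cytokine genes were under the limit of 1 FPKM and not tested: upd3 had 0.361 and 0.149 FPKM in tgs1hypo and 1.52 and 0.561 in WT, and upd2 had 0.0900 and 0.0304 FPKM in tgs1hypo and 0.657 and 0.254 in WT. All 3 cytokine genes lay below both WT libraries in both tgs1hypo libraries. How common this order was over all testis genes was not determined, so nothing is read from it. The list's median was 0.38 against 0.11 over all genes, and Stat92E, which encodes its transcription factor, had 26.7 and 26.9 FPKM in tgs1hypo and 20.7 and 19.1 in WT. Of the antimicrobial peptide genes 10 were tested and AttB was called lower (log2 change -2.27 ± 0.43, SE, limma adjusted p = 0.00394), with 1.33 and 0.766 FPKM in tgs1hypo and 15.1 and 4.96 FPKM in WT. In the Mekk1-p38, Imd, JNK and secreted protein lists 0 of 5, 0 of 13, 0 of 9 and 0 of 4 tested genes were called, and their unadjusted p was under 0.05 for 3, 9, 2 and 2 genes, where it was for 7119 of the 11343 testis genes tested. Among these lists the largest changes were those of Atf-2 (0.94), lic (0.58), pirk (-0.86), Rel (-0.78), grnd (-0.83), kay (-0.72), vir-1 (-0.77) and Diedel (0.49).

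Markers of other cells in the dissected testes also differed between the groups. The 4 muscle markers, which the testis sheath expresses, were all lower in tgs1hypo, with sums of 107 and 126 FPKM, against 230 and 214 FPKM in WT, and Act57B was called lower (log2 change -1.04). The hemocyte markers summed to 10.4 and 10.5 FPKM in tgs1hypo and 5.62 and 5.38 FPKM in WT. Pxn, a blood cell peroxidase gene, was called higher (1.01), and Hml and eater were higher in both tgs1hypo libraries. NimC1 of that list went the other way, with 0.362 and 0.436 FPKM in tgs1hypo and 0.838 and 0.664 FPKM in WT. He was at 0 in 1 tgs1hypo library. The adult fat body markers, of a tissue that can cling to dissected testes, summed to 10.1 and 10.6 FPKM in tgs1hypo and 9.82 and 8.92 in WT, and 2 of the 5 were tested, with 0 called. Of these, the yolk protein gene Yp3 had 6.10 and 7.73 FPKM in tgs1hypo and 4.07 and 4.99 in WT, and apolpp, which the testis table names Rfabg, had 3.11 and 2.43 FPKM in tgs1hypo and 5.19 and 3.81 in WT. The accessory gland and ejaculatory duct markers summed to 1503 and 1578 FPKM in tgs1hypo and 1941 and 2079 FPKM in WT, with 0 of 6 called by limma, an unadjusted p under 0.05 for all 6 (against 7119 of 11343 over all genes), and 5 of 6 lower in both tgs1hypo libraries. TotA was lower in both tgs1hypo libraries, as were the muscle markers, most accessory gland markers and apolpp. Yp3 and EbpIII, the remaining accessory gland marker, were higher in both. How common either order was over all testis genes was not determined. Nothing is therefore read from these orders, nor from those of the soma and germline markers below. Of 4 tested markers of the testis soma (hub and cyst cells), so, Fas3 and upd1 were lower in both tgs1hypo libraries and eya was higher. The part of these tissues in the TotA level was not tested. The 7 testis germline markers were present in both groups, with sums of 2995 and 2865 FPKM in tgs1hypo and 2888 and 3221 FPKM in WT. The largest part of each sum was betaTub85D. In both tgs1hypo libraries bam, aly and betaTub85D were higher than in both WT libraries, and can, dj and djl were lower. For can the values were 10.7 and 9.67 FPKM in tgs1hypo and 20.1 and 19.9 FPKM in WT. The study reported that tgs1hypo testes lacked post-meiotic cells.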

How the data were processed

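Poly(A)-enriched libraries of larvae and testes were sequenced on an Illumina instrument. The authors mapped reads with HISAT2 to the FlyBase genome and deposited FPKM values per gene for each tissue. The tool behind the FPKM values is not given in the sources used here, and replicates were not pooled. The values hold no counts, so depth and counting error are unknown. The members and lists were chosen with earlier results of these data known.

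Analyses used log2(FPKM + 1). Within each tissue, genes whose mean over the 4 libraries reached 1 FPKM were fitted with limma 3.58.1 in R 4.3.3 (lmFit, then eBayes with the trend), with genotype as the only term and Benjamini-Hochberg adjustment over all genes. A call needed an adjusted p below 0.05 and a log2 change of 1 or more in either direction. An exact permutation test of 2 against 2 libraries cannot go below p = 0.333 (two-sided), so none was used. Larval members were given by value only, and assembled loci without a FlyBase identifier were left out of the fit. Named genes were all members and TotE, moi, called genes of each list or else the 2 with the largest change, and the 5 genes nearest to TotA and to TotC. The genes dome, DptB, Stat92E, AttC, upd2, upd3 in testes, the larval neighbours, the next largest larval differences and the markers with values were named after their values were seen. Positions are from the Ensembl release 115 annotation of BDGP6.54, in which 99.2% of the larval and 98.5% of the testis identifiers were found. The method was tested on simulated data. Alternatives were a pseudocount of 0.1, no filter or a filter at 5 FPKM, median-of-ratios, sum, mitochondria-free and quantile scaling, no trend, the adjusted p alone, a replicate block, and each library left out. Python 3.11.15, pandas 2.3.3, numpy 2.4.6 and matplotlib 3.10.9 were used. Promoter and protein sequences were not analysed here.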

Additional observations from a re-analysis of the deposited data

Results flagged for a closer look

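TotA went in opposite directions in the 2 tissues. In larvae both tgs1KO libraries were above both WT libraries, with a log2 difference of 5.58, and in testes both tgs1hypo libraries were below both WT libraries, with a log2 change of -1.08. The difference between the tissues was not tested: the tissues carry different alleles, their tables were normalised separately, and the larval value was among those behind the choice of the genes.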

How the results depend on the processing

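The count of members called in testes was 1 and stayed 1 under a pseudocount of 0.1, no filter, median-of-ratios scaling, rescaling to a common sum with or without mitochondrial genes, no trend and the adjusted p alone. It was 0 under quantile normalization and ran between 0 and 1 as single libraries were left out, since TotA then fell short of a log2 change of 1, while a filter at 5 FPKM left no member to test. TotA in testes ranged between -1.42 and -0.80. With the replicate block the count was 1 and the adjusted p of TotA 0.000801 (limma), but the 2 pairs share only a number, and deviations of same-numbered libraries correlated at 0.13 in testes and -0.17 in larvae. Over all larval genes limma called 0 without the block, 0 with it and 1 with crossed pairing, and without tgs1KO replicate 1 it called 7. The number of larval members with separated groups ran from 2 to 3. The log2 ratio of the summed larval level, 5.45, was 6.02 with a pseudocount of 0.1 and ran from 5.11 to 5.90 as single libraries were left out. TotA and TotC stayed higher in tgs1KO larvae under every alternative run, at 5.27 to 6.43 and 3.58 to 6.10. With 2 libraries per group and no counts, members under 1 FPKM cannot be ranked or compared.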

Other observations

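The noncoding gene lncRNA:CR44048, on the strand opposite to TotZ and next to its end, had 10.7 and 12.9 FPKM in tgs1hypo testes and 16.3 and 19.4 FPKM in WT testes, above every Turandot gene in the same libraries. In larvae it had at most 0.111 FPKM. Set side by side, TotA and TotC of the cluster had their highest levels in tgs1KO larvae, and lncRNA:CR44048 had its higher levels in testes of both groups. TotB of the same cluster had 0.600 and 0.529 FPKM in WT testes and at most 0.201 FPKM in larvae. The tissues were normalised separately.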
